A study of Mus musculus with 4 samples.

Results

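Mouse dendritic cells that had received CAF.CM, the culture medium of CAFs (usually short for cancer-associated fibroblasts), were compared directly with dendritic cells that had received Wnt2, a secreted signalling protein. The question was what the medium does that Wnt2 alone does not. Members are the genes that the authors listed in both the table of CAF.CM against control medium and the table of Wnt2 against control medium, 12954 of the 13685 genes listed in any table. For each gene the log2 ratio of CAF.CM over Wnt2 was computed from the reads of these 2 libraries. The cells of all groups came from bone marrow of C57BL/6 mice aged 4 weeks and had been cultured for 7 days in recombinant IL-4 and GM-CSF, each at 10 ng/ml. The Wnt2 group received Wnt2, the CAF.CM group received the CAF medium, and the values of the remaining 2 groups, control medium and CAF.CM incubated beforehand with an antibody to Wnt2 (called the antibody library), are printed beside them. The dose of Wnt2, the length of exposure, the source of the CAFs and the amount of Wnt2 in the medium are not stated in the sources at hand, so the comparison sets 1 unstated dose of a protein against 1 medium of unstated content.

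Each group has 1 column of values, called a library here, although the series text speaks of triplicates, and it is not stated whether a column pools several. Without replicates no p-value can be given, and every difference below is between 2 libraries. Levels are the authors' CPM, that is counts scaled to library size. Brackets give the exact 95% binomial interval of a ratio, which covers counting error only. Higher and lower mean a difference of at least 2-fold, that is a log2 ratio of at least 1 in size. The Wnt2 library held 154399767 reads in listed genes and the CAF.CM library 25225220, so a read was worth 0.00651 CPM in the former and 0.0384 CPM in the latter, and CAF.CM levels are the less precise. Protein-coding genes took 80.1% of reads in Wnt2 and 75.8% in CAF.CM, and mitochondrially encoded genes of every type 6.1% and 4.27%. As background, dendritic cells take up antigen, show it to T cells on MHC molecules and add costimulatory and cytokine signals. Interferons and bacterial products bring out an antiviral and antigen-presenting programme in them through STAT, IRF and NF-kappaB factors. Wnt proteins bind Frizzled and LRP receptors and can stabilise beta-catenin, which then acts with TCF factors in the nucleus.

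CAF.CM cells were higher than Wnt2 cells in 560 genes (4.32% of those listed in both tables) and lower in 833 (6.43%), so 10.8% of genes differed by at least 2-fold. These percentages are the background for the counts of every list below, and a list with few members past 2-fold may lie near them. Named protein-coding genes were ranked if they had at least 200 reads in the sum of both libraries and 5 CPM in either. The highest ratios included those of Lcn2, Cfb and Ccl5, and the lowest those of Serpinb2, Tnfsf14 and Col14a1, all described below. A gene can meet this minimum through the Wnt2 library alone, and Tnfsf14 and Col14a1 rested on only 9 and 4 reads in CAF.CM. The median log2 ratio was -0.05, with quartiles of -0.37 and 0.24. Where the counting interval had to lie wholly beyond 2-fold, 404 were higher and 499 lower. Among the 1462 genes with a mean level under 2 CPM, 70 were higher and 233 lower, so part of the excess of lower genes sat at low levels. The excess also depends on which genes are listed. Of the 2 tables, 375 genes were listed only in that of CAF.CM and 166 only in that of Wnt2, and these have no ratio. With genes listed in all 3 tables, 556 were higher and 595 lower. The remaining table sets the antibody library against CAF.CM, so it leaves out genes under about 1 CPM in both. Genes low in CAF.CM thus drop out by this filter, and the smaller excess follows from it. In bulk RNA, fewer cells of a type and less RNA per cell cannot be told apart, and this holds for every result below.

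**Figure D1:**
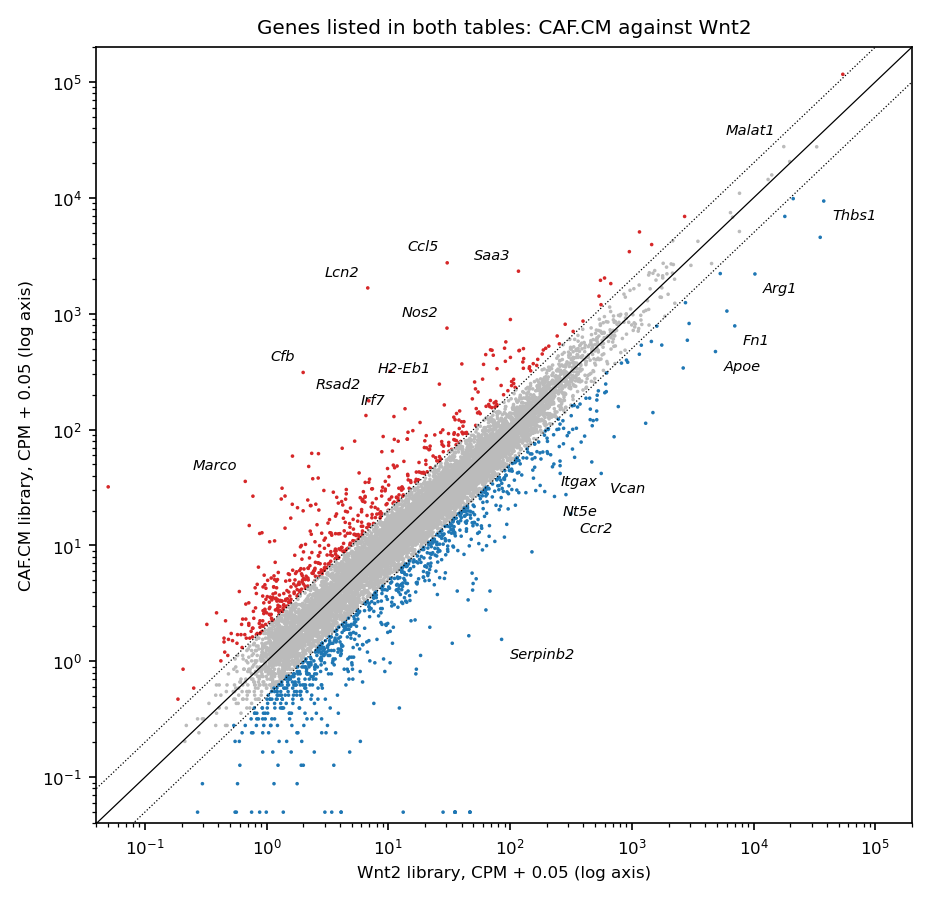
Level of each of the 12954 genes in the Wnt2 library (x) and the CAF.CM library (y), in CPM + 0.05 on log axes; the solid line marks equal levels and the dotted lines 2-fold. Red points are the 560 genes at least 2-fold higher in CAF.CM and blue points the 833 lower; genes with no read in a library lie at the edge at 0.05.

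Among named protein-coding genes with reads in both libraries, the widest gap was in Lcn2 (chr2:32384633-32388252, GRCm38), which encodes lipocalin-2, an antibacterial protein that binds iron-carrying siderophores. Lcn2 stood at 6.72 CPM in Wnt2 and 1668 CPM in CAF.CM, against 4.05 in control medium and 1398 in the antibody library. Both CAF.CM libraries were thus far above the other libraries, and the log2 ratio of CAF.CM over Wnt2 was 7.95 (7.87 to 8.04), or 247-fold. Ccl5 (chr11:83525778-83530518), a chemokine that draws T cells and monocytes, stood at 30.4 CPM in Wnt2 against 2746 CPM in CAF.CM, with 26.5 in control medium and 3289 in the antibody library, a log2 ratio of 6.5 (6.46 to 6.54). Marco (chr1:120474538-120505024), a scavenger receptor for bacteria, stood at 10.2, 0.618, 35.7 and 33.8 CPM in the order control medium, Wnt2, CAF.CM, antibody library, which is also the order of every later set of 4 levels given without names. For Marco the Wnt2 library was the lowest of the 4, and the log2 ratio was 5.80 (5.54 to 6.17). Nos2 (chr11:78920787-78960254), the inducible nitric oxide synthase, stood at 16.7, 30.3, 751 and 1362 CPM, a log2 ratio of 4.63 (4.59 to 4.68). Saa3, an acute phase apolipoprotein, stood at 279, 117, 2326 and 2794 CPM, a log2 ratio of 4.31. Cfb, complement factor B, had a log2 ratio of 7.30, from 1.95 CPM in Wnt2 to 311 CPM in CAF.CM, but 81.5% of the short sequence words of its transcript also occurred in another gene's transcript, so its level is uncertain. The same holds to a lesser degree for Orm1, an acute phase plasma protein (log2 ratio 5.20, 27.5% shared).

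At the other end stood Serpinb2 (chr1:107511423-107535478), which encodes plasminogen activator inhibitor 2. Serpinb2 was at 85.1 CPM in Wnt2 and 1.498 CPM in CAF.CM, against 7.48 in control medium and 0.517 in the antibody library, a log2 ratio of -5.81 (-6.32 to -5.38). The Wnt2 library alone was high for this gene. Vcan (chr13:89655312-89742509), the matrix proteoglycan versican, was likewise highest in Wnt2, with 35.3, 560, 41.8 and 17.2 CPM and a log2 ratio of -3.74 (-3.83 to -3.66). Ccr2 (chr9:124101950-124113557), the receptor that guides monocytes out of the marrow, was instead highest in control medium. Its levels were 580, 315, 18.8 and 3.97 CPM, a log2 ratio of -4.07 (-4.20 to -3.94). Tnfsf14 (LIGHT, a ligand of the TNF superfamily), Rgs16 (an inhibitor of G protein signalling), F13a1 (coagulation factor XIII), Ppbp (a platelet basic chemokine precursor) and the chemokine Cxcl14 had log2 ratios of -5.06, -4.48, -4.52, -4.81 and -4.09. Col14a1, a fibril-associated collagen, had a log2 ratio of -5.06 with a wide interval (-7.13 to -3.89), since it stood at only 0.154 CPM in CAF.CM. The interval of Tnfsf14 was wide too (-6.28 to -4.22), at 0.346 CPM in CAF.CM.

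**Figure D2:**
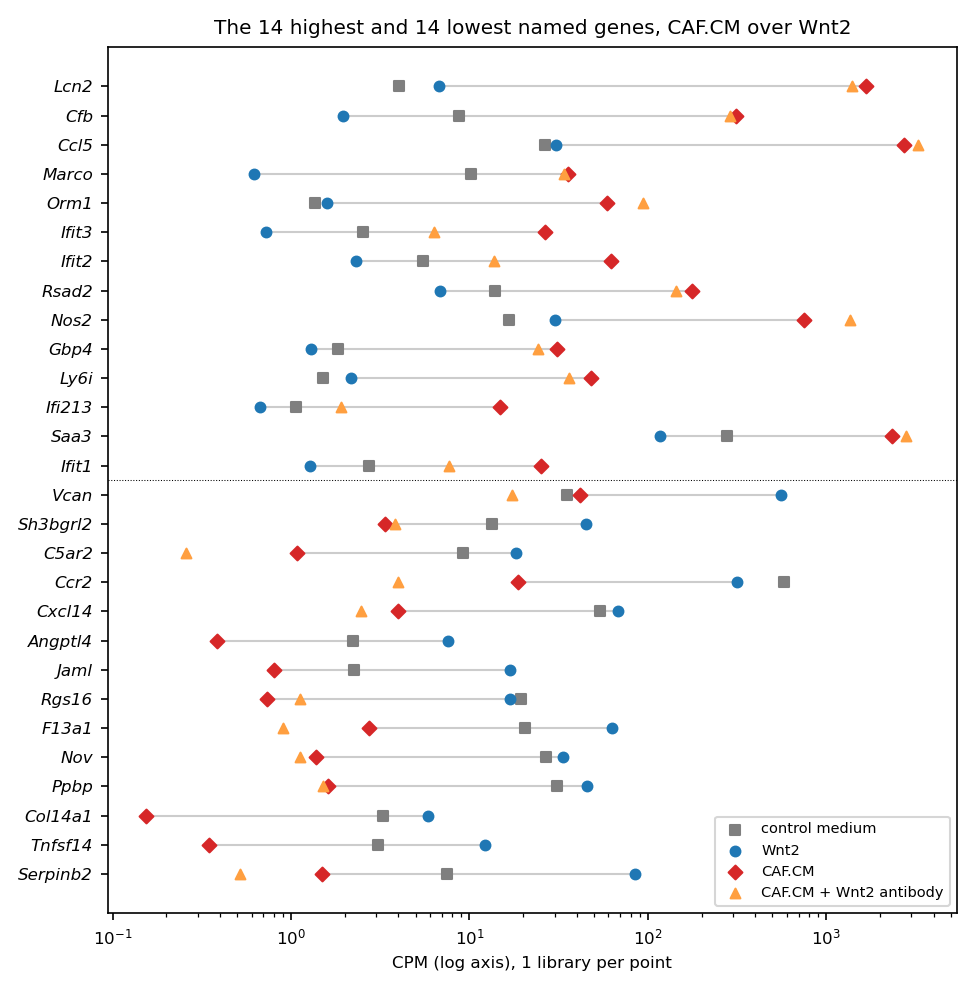
CPM (log axis) of the 14 highest and 14 lowest named protein-coding genes by log2 ratio of CAF.CM over Wnt2, with 1 point per library and a grey line from Wnt2 to CAF.CM. For Lcn2 the points lie at 6.72 CPM in Wnt2 and 1668 CPM in CAF.CM, and for Serpinb2 at 85.1 and 1.498 CPM; a missing antibody point means that the gene is not listed in that table.

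Interferon-stimulated genes lay together on the higher side. Of 34 measured members, 27 were higher, 0 lower and 7 within 2-fold, and all 34 ratios were above 0, with a median log2 ratio of 2.13 against -0.05 over all genes. The percentages over all genes were 4.32% higher and 6.43% lower. Ifit2 (chr19:34550694-34576419), whose product binds viral RNA, stood at 2.30 CPM in Wnt2 against 62.3 CPM in CAF.CM, with 5.50 in control medium and 13.8 in the antibody library, a log2 ratio of 4.75 (4.59 to 4.93). Rsad2 (viperin, an enzyme that blocks viral replication) stood at 13.8, 6.85, 177 and 144 CPM, a log2 ratio of 4.69 (4.59 to 4.79). Irf7, the transcription factor that amplifies type I interferon, stood at 9.74, 11.1, 129 and 87.5 CPM, a log2 ratio of 3.55 (3.46 to 3.63). In each of these genes CAF.CM was the highest library, with the antibody library second. Ifit1 and Ifit3 had log2 ratios of 4.28 and 5.16, and Ifit3 shares 61.8% of its sequence words with another gene. Isg15, a ubiquitin-like modifier, had a log2 ratio of 2.57, and Bst2 (tetherin, which holds budding virions on the membrane) one of 2.5. The members within 2-fold included the RNA sensor Ifih1 (0.79), the STAT partner Irf9 (0.71) and the kinase Eif2ak2 (0.45).

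All 13 measured interferon-inducible GTPases, proteins that attack the vacuoles of intracellular pathogens, were higher in CAF.CM, with log2 ratios from 1.25 to 4.57 and a median of 2.53. Gbp5 stood at 2.13 CPM in Wnt2 and 24.6 CPM in CAF.CM, against 2.21 in control medium and 12.1 in the antibody library, a log2 ratio of 3.52 (3.34 to 3.73). Gbp3 stood at 19.8, 5.70, 42.2 and 19.6 CPM, a log2 ratio of 2.88 (2.76 to 3.02). Gbp4 (4.57) and Tgtp2 (3.99) were higher still, but share 22.6% and 94.6% of their sequence words with other genes, Tgtp2 almost wholly. The summed level of the 13 genes was 114 CPM in Wnt2 against 555 CPM in CAF.CM, with 189 in control medium and 273 in the antibody library. Among 16 interferon regulatory factors and DNA sensors, 6 were higher and 0 lower, and the median was 0.69. The 6 were Ifi213 (4.42), Ifi211 (3.92), Ifi204 (1.91), Ifi209 (1.83), Ifi203 (1.76) and Mndal (1.57), all members of the Ifi200 family, which bind DNA. Ifi211 and Ifi204 share 54.4% and 44.7% of their sequence words with other genes. Irf8, a factor that dendritic cell development needs, stood at 145, 140, 94.5 and 52.0 CPM, a log2 ratio of -0.57.

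The promoters of several of these genes hold the interferon response element, the DNA element that IRF and ISGF3 factors bind. The element was searched as GAAA, any 2 bases and GAAA again, on both strands, over the 250 bases before each start site, in the promoter table of RefSeq (build GRCm38.p6), counting overlapping matches each. Of 27025 genes with a promoter in that table, 3.46% held it. The stretches below come from genes higher in CAF.CM and are shown because they hold the element. They therefore give no share of such genes that hold it. Saa3 also held 1 match and is not shown, and Oasl1 and Usp18, looked up in the same way, gave no stretch. Each stretch is read 5′ to 3′ on the strand of its gene. Capitals mark the element, which reads TTTC, any 2 bases and TTTC where it lies on the other strand.
Ifit1, chr19:34640745-34640853, plus strand: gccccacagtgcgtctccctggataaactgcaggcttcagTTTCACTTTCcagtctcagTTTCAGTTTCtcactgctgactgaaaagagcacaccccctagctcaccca
Ifit3, chr19:34583333-34583456, plus strand: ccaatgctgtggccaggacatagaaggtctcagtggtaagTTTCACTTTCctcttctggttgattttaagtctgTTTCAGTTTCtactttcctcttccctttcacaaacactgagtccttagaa
Rsad2, chr12:26456523-26456612, minus strand: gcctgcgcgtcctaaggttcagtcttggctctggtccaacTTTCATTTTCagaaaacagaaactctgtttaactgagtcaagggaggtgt
Isg15, chr4:156200835-156200936, minus strand: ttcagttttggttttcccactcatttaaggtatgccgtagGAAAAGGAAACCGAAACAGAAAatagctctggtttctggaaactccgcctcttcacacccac
Gbp3, chr3:142559959-142560043, plus strand: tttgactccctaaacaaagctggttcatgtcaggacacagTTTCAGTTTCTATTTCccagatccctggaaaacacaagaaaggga
Gbp5, chr3:142496729-142496818, plus strand: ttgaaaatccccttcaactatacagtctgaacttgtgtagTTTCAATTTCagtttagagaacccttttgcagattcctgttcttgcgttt
Socs1, chr16:10785564-10785659, minus strand: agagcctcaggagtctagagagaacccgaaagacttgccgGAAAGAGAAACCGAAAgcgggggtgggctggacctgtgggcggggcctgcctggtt
H2-T22, chr17:36042884-36042973, minus strand: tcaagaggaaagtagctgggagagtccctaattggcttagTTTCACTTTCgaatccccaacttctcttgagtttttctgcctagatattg

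Ifit1 and Ifit3 each held 2 copies apart from each other, beginning 104 and 85 bases before the start of Ifit1 and 156 and 122 bases before that of Ifit3. In Gbp3, Socs1 and Isg15 the copies overlapped, so the capitals run on as 1 block. A match of letters is a description and not a bound site. Of the 14 lowest genes, Cxcl14 and Jaml also held it, and no match was found in the windows before Lcn2, Ifit2 or Marco. A promoter entry was matched for under 80% of the higher genes, the lower genes, the interferon-stimulated genes and the GTPases, so no share of promoters with the element is given for these groups.

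Genes of MHC class I presentation, which shows peptides from inside the cell to CD8 T cells, were higher as a group. Of 20 measured, 12 were higher and 0 lower, all 20 ratios were above 0, and the median log2 ratio was 1.33. B2m, the light chain of every class I molecule, was at 1155 CPM in Wnt2 and 5075 CPM in CAF.CM, a log2 ratio of 2.14, and the heavy chains H2-K1 and H2-D1 had ratios of 1.85 and 1.44. Tap1, a subunit of the peptide pump, stood at 51.1 CPM in Wnt2 and 257 CPM in CAF.CM, against 59.5 in control medium and 276 in the antibody library, a log2 ratio of 2.33 (2.29 to 2.38). In Tap1, as in the summed level of the list (5790, 4740, 16600 and 18200 CPM), control medium and Wnt2 lay close together and both CAF.CM libraries lay above. The immunoproteasome subunits Psmb9 and Psmb8 had ratios of 1.81 and 1.22, while Psmb10 (0.27) and the class I transactivator Nlrc5 (0.73) were within 2-fold. H2-T22, H2-Q7 and H2-Q6, nonclassical class I genes, had ratios of 3.20, 3.15 and 2.81. They share 50.5%, 37.0% and 49.8% of their sequence words with other genes, so their split is uncertain. The interferon response element was found before 3 of the 17 class I genes with a promoter entry (17.6%).

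MHC class II genes, which show peptides taken up from outside to CD4 T cells, were also higher than in Wnt2, with 7 of 11 measured members higher, 0 lower and a median log2 ratio of 2.02. Unlike class I, their order put control medium at or above CAF.CM for the chains of the peptide-binding molecules. H2-Eb1 (chr17:34305867-34316674) stood at 26.2 CPM in Wnt2 against 247 CPM in CAF.CM, with 332 in control medium and 265 in the antibody library, a log2 ratio of 3.23 (3.18 to 3.29). H2-Ab1 stood at 489, 71.0, 483 and 521 CPM, a log2 ratio of 2.77 (2.73 to 2.80). H2-Aa stood at 599, 60.5, 365 and 316 CPM, a log2 ratio of 2.59 (2.55 to 2.64). For each of the 3 the Wnt2 library was the lowest by a wide margin. Cd74, the invariant chain that guides class II to the endosome, followed the same order, with 1055, 119, 483 and 463 CPM and a log2 ratio of 2.02. Ciita, the transactivator of class II genes, stood at 30.3, 4.21, 6.11 and 1.85 CPM. Its log2 ratio was 0.53 (0.28 to 0.79), so Ciita itself was within 2-fold and all 3 treated libraries were far below control medium. The subunits of the DO chaperone, H2-Ob (3.47) and H2-Oa (2.36), were higher, while H2-DMb1 (0.75), H2-DMb2 (0.20) and the endosomal protease Ctss (0.27) were within 2-fold.

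**Figure D3:**
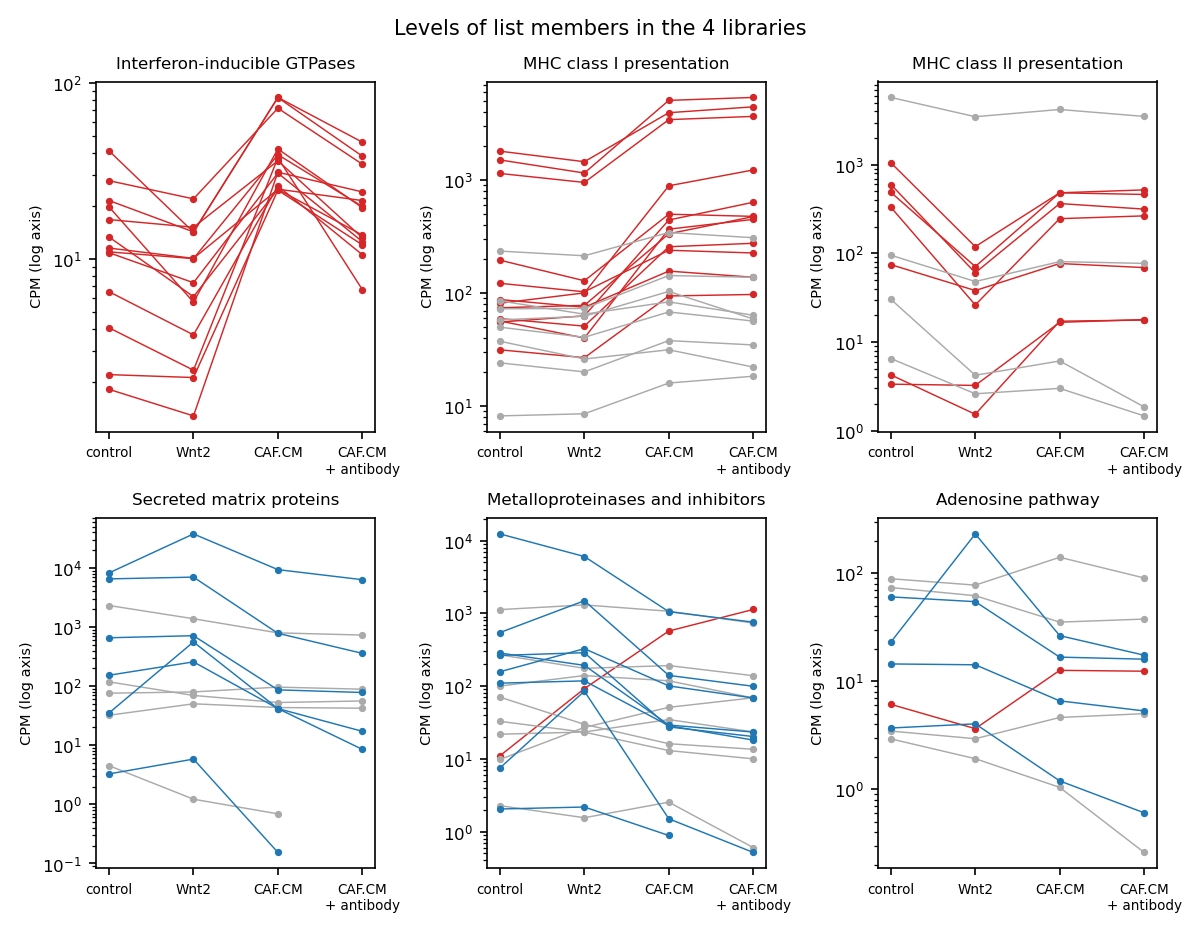
CPM (log axis) of the measured members of 6 gene lists in the 4 libraries, with 1 line per gene; red lines are genes at least 2-fold higher in CAF.CM than in Wnt2, blue lines at least 2-fold lower and grey lines within 2-fold. All 13 GTPase lines are red, the class II chains dip in Wnt2 (H2-Ab1 at 71.0 CPM against 483 CPM in CAF.CM), and a line stops where a gene is not listed in the antibody table.

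The Y box, the CCAAT element that the factor NF-Y binds in class II promoters, was searched as CTGATTGG and its reverse on the same windows. This motif was added after the class II values had been seen. It was held by 4.43% of the 27025 genes in the promoter table and by 6.4% of the genes listed in both tables that have an entry. The 2 stretches below show it in chains of the class II molecule, in capitals, 62 bases before the start of H2-Eb1 and 51 bases before that of H2-Aa.
H2-Eb1, chr17:34305765-34305852, plus strand: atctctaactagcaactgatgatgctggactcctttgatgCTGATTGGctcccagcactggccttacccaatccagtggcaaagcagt
H2-Aa, chr17:34287827-34287914, minus strand: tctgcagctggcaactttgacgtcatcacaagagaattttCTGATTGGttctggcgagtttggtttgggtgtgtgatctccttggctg
Among class I genes with a promoter entry, 6 of 17 (35.3%) held the same letters. The window before H2-Ob held no match.

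Of 18 measured costimulatory and maturation genes, 4 were higher, 1 lower and 13 within 2-fold, with a median of 0.11, against 4.32% higher and 6.43% lower over all genes. Cd40, the receptor through which T cells license dendritic cells, stood at 0.97 CPM in Wnt2 and 4.95 CPM in CAF.CM, against 1.24 in control medium and 4.61 in the antibody library, a log2 ratio of 2.33 (2.0 to 2.7). Cd274 (PD-L1, a ligand that restrains T cells) stood at 250, 397, 863 and 1134 CPM, a log2 ratio of 1.12 (1.1 to 1.14). For Cd274 all 3 treated libraries stood above control medium, with both CAF.CM libraries highest. Cd86, a ligand of CD28, was the lower member, at 35.2, 81.2, 32.9 and 23.5 CPM, a log2 ratio of -1.30 (-1.41 to -1.20). For Cd86 the Wnt2 library alone was high. Cd80, the other ligand of CD28, was at 5.35, 10.7, 11.1 and 9.44 CPM, a log2 ratio of 0.06 (-0.13 to 0.24), an interval that spans 0. Tnfsf4 (OX40 ligand) and Ccl22, a chemokine for regulatory T cells, had ratios of 1.5 and 1.07. The homing receptor Ccr7 (0.39), the surface marker Cd83 (0.27) and the actin bundler Fscn1 (0.09) were within 2-fold.

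Of 13 measured inflammatory cytokines, 4 were higher and 1 lower, and the median was 0.17. Il6 stood at 2.49 CPM in Wnt2 against 22.7 CPM in CAF.CM, with 1.72 in control medium and 25.5 in the antibody library, a log2 ratio of 3.18 (3.0 to 3.38). Il1a had a ratio of 1.27, while Il1b, at 7.19, 35.3, 62.7 and 66.8 CPM, had one of 0.83 (0.75 to 0.91). Tnf stood at 10.3, 5.30, 4.95 and 6.21 CPM, a ratio of -0.10 (-0.38 to 0.17). Il6 therefore separated CAF.CM from Wnt2 more than Il1a and Il1b did, and Tnf did not separate them beyond counting error. Il1rn, which encodes the antagonist of the IL-1 receptor, was lower, at 102, 294, 88.5 and 75.8 CPM, a ratio of -1.73 (-1.80 to -1.67). Tnfsf10 (TRAIL, a death ligand) and Tnfsf13b (BAFF, a B cell survival factor) had ratios of 2.07 and 1.06. Of the IL-12 and IL-15 group, 5 of 10 were measured, and 2 of them were higher. These were the receptor chains Il12rb1 (1.72) and Il15ra (1.65), with Il15 itself at 0.98. Il12a, the p35 chain of IL-12, was listed only in the CAF.CM table, at 6.26 CPM against 0.106 CPM in control medium. Il12b, the p40 chain, was likewise listed only there, at 2.27 CPM against 0.353 CPM. The Wnt2 table starts at about 1 CPM, so no ratio to Wnt2 is given for either.

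Of 12 measured chemokines, Ccl5 among them, 2 were higher and 6 lower, and the median was -0.96. Ccl9 stood at 1299 CPM in Wnt2 and 113 CPM in CAF.CM, against 1151 in control medium and 66.3 in the antibody library, a log2 ratio of -3.52 (-3.57 to -3.47). Ccl6 stood at 2698, 2641, 340 and 130 CPM, a ratio of -2.96 (-2.99 to -2.93). In both genes, which encode myeloid chemokines of the CC family, control medium and Wnt2 were alike in level and both CAF.CM libraries were low. Cxcl3 (-1.83), Cxcl2 (-1.45) and Ccl3 (-1.35), which recruit neutrophils and monocytes, were lower too. Ccl24, an eosinophil chemokine, was the second higher member at 1.16. The interferon-induced chemokines Cxcl9, Cxcl10 and Cxcl11 are not in any table used here.

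Of 11 chemokine and chemoattractant receptors, 2 were higher and 5 lower, and the median was -0.85. Beside Ccr2, the lower receptors were Ackr3 (a scavenging receptor for CXCL12, -2.79), C5ar1 (the receptor for the complement fragment C5a, -2.42), Cxcr4 (the CXCL12 receptor, -2.27) and Cx3cr1 (the fractalkine receptor, -1.58). Cxcr4 stood at 139, 257, 53.4 and 35.9 CPM in control medium, Wnt2, CAF.CM and the antibody library. Ackr3 stood at 3.08, 74.9, 10.8 and 13.6 CPM, so all 3 treated libraries were above control medium and Wnt2 was the highest. C5ar2, the second C5a receptor, was at 18.3 CPM in Wnt2 and 1.08 CPM in CAF.CM, a ratio of -4.06 (-4.68 to -3.56). The formyl peptide receptor Fpr2 (1.92) and the atypical receptor Ccrl2 (1.55) were the higher members.

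Genes that carry or dampen cytokine signals differed in part. Of 19 SOCS and JAK-STAT genes, 5 were higher and 0 lower, and the median was -0.03. Socs1, a feedback inhibitor of interferon signalling, stood at 1.85 CPM in Wnt2 against 9.68 CPM in CAF.CM, with 1.74 in control medium and 7.84 in the antibody library, a log2 ratio of 2.37 (2.14 to 2.64). Socs3, which inhibits signalling by IL-6, stood at 13.8, 40.2, 94.9 and 45.9 CPM, a ratio of 1.24 (1.17 to 1.31). Jak2, a kinase used by GM-CSF and interferon-gamma receptors, stood at 181, 196, 503 and 446 CPM, a ratio of 1.36. Cish (1.22) and Stat4 (1.14) were the remaining higher genes. Stat3, which IL-6 and IL-10 activate, stood at 151, 176, 168 and 169 CPM, a ratio of -0.06 (-0.11 to -0.02), so its transcript level stayed between 151 and 176 CPM in all libraries. Of 21 cytokine receptors, 2 were higher and 4 lower, and the median was -0.42. Ifngr1, a chain of the interferon-gamma receptor, was lower at 244, 456, 150 and 98.2 CPM, a ratio of -1.60 (-1.65 to -1.56). Ifnar2 (1.11), a chain of the type I interferon receptor, was higher, and its partner Ifnar1 was at 0.01. Csf2ra, the GM-CSF receptor chain, stood at 188, 121, 50.6 and 31.5 CPM, a ratio of -1.26. Lepr, the leptin receptor, stood at 0.876, 26.3, 5.22 and 3.02 CPM, a ratio of -2.33 (-2.59 to -2.09).

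**Figure D4:**
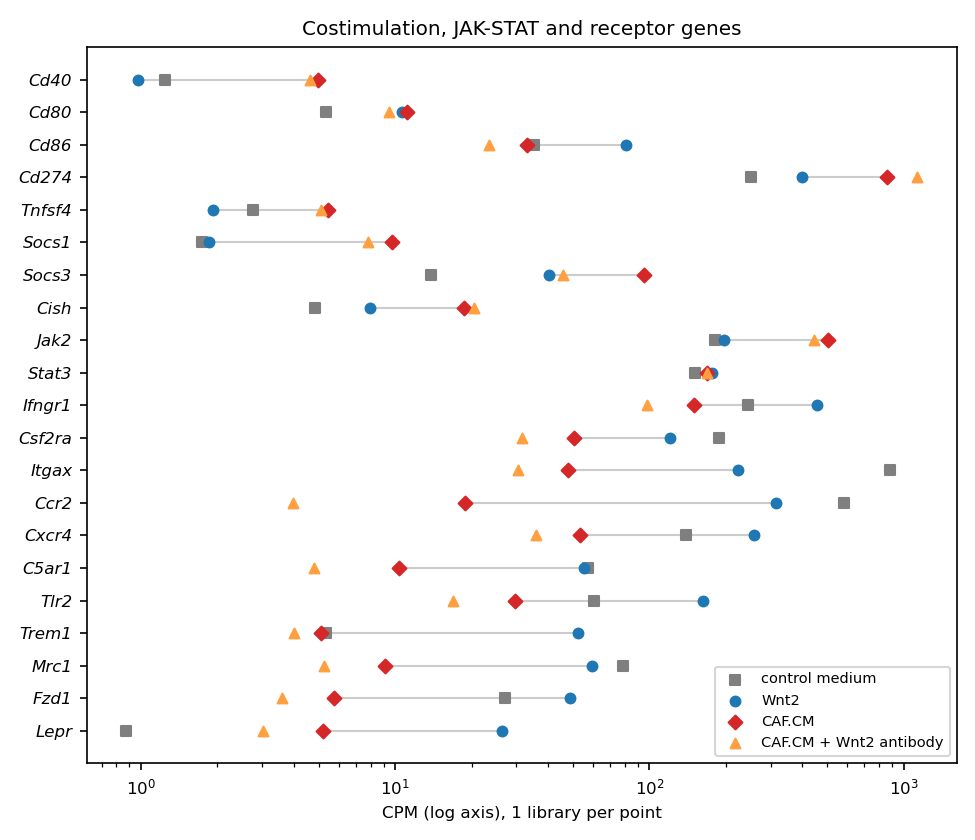
CPM (log axis) of 21 costimulatory, JAK-STAT and receptor genes in the 4 libraries, with 1 point per library and a grey line from Wnt2 to CAF.CM. Cd40, Socs1 and Jak2 lie to the right in CAF.CM (Socs1 at 9.68 CPM against 1.85 CPM), Stat3 and Cd80 overlap, and Cd86, Ifngr1, Ccr2 and Trem1 lie to the right in Wnt2.

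NF-kappaB genes were mixed, with 4 of 16 higher, 1 lower and a median of 0.34. The higher members, Traf1 (1.83), Tnip3 (1.78), Nfkbia (1.51) and Tnfaip3 (1.35), encode regulators of NF-kappaB signalling. Tnip3 stood at 106, 35.3, 122 and 82.9 CPM, so CAF.CM was near control medium and Wnt2 was the lowest library. Other regulators, among them Birc3 (0.20), Nfkbie (0.42) and Nfkbiz (-0.55), were within 2-fold. The subunits Rela (-0.27), Nfkb1 (0.06) and Rel (0.24) were within 2-fold too. The lower member, Nfkbid, lay at -1.03. Nfkbid, Slc7a1, Ctsk, Itgam and Tlr4 lay so near the threshold that they were within 2-fold under each of the 4 other scalings tried. Conversely Il15, Nfkbib, Tap2, Trim30a, Clec4a3 and Tgm2, just within 2-fold, were past it under each of them. Of 18 pattern recognition receptors, 1 was higher and 4 lower, and the median was -0.16. Trem1, which amplifies inflammatory signals, stood at 52.6 CPM in Wnt2 and 5.11 CPM in CAF.CM, against 5.35 in control medium and 4.01 in the antibody library, a log2 ratio of -3.36 (-3.62 to -3.12). Tlr2, the receptor for bacterial lipoproteins, stood at 60.4, 162, 29.7 and 16.9 CPM, a ratio of -2.45 (-2.56 to -2.35). Both were highest in Wnt2. Tlr7 (-1.21) and Tlr4 (-1.02), the receptors for single-stranded RNA and lipopolysaccharide, were lower by smaller amounts.

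Acute phase and antimicrobial genes, the list that holds Lcn2, had 10 of 13 measured members higher and 1 lower, with a median of 2.29. Apart from the genes given above, Cp (ceruloplasmin, 2.5), Ptx3 (a soluble pattern receptor, 2.29), Hp (haptoglobin, 2.02), C3 (1.81) and Acod1, which makes itaconate (1.27), were higher. Ptx3 stood at 23.1, 1.65, 8.18 and 3.23 CPM, so CAF.CM lay below control medium and Wnt2 was the lowest library. Slpi (-0.20) and the metal transporter Slc11a1 (-0.05) were within 2-fold, and S100a8 was lower (-1.51). The summed level of the list was 1130 CPM in Wnt2 against 7920 CPM in CAF.CM, with 1410 in control medium and 7880 in the antibody library. Lcn2, S100a8, Mmp8 and Mmp9 are also neutrophil genes. Of 16 neutrophil markers 6 were measured, with 1 higher and 5 lower, and their summed level was 874, 1860, 1860 and 1530 CPM. The equal sums in Wnt2 and CAF.CM came mostly from different genes. Mmp8 stood at 1489 CPM in Wnt2 and 140 CPM in CAF.CM, and Lcn2, the higher member, at 6.72 and 1668 CPM. Ly6g, Camp, Ltf, Elane and Mpo, which define neutrophils and their precursors, are not in any table used here. The part of such cells in these ratios was not tested.

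Complement genes were split, with 3 of 12 higher and 6 lower. C3, Cfb and C1s1 were higher, at ratios of 1.81, 7.30 and 2.72, and C1s1 shares 36.5% of its sequence words with another gene. The 3 chains of C1q, which start the classical pathway, were lower at -1.74 (C1qa), -1.98 (C1qb) and -1.72 (C1qc). In the arginine list, 1 of 9 was higher and 3 lower. Nos2 and Arg1 use the same substrate, and they stood on opposite sides. Arg1, arginase 1 (chr10:24915221-24927484), stood at 10252 CPM in Wnt2 and 2201 CPM in CAF.CM, against 5479 in control medium and 1412 in the antibody library, a log2 ratio of -2.22 (-2.23 to -2.21). Arg2, the mitochondrial arginase, was lower by a ratio of -1.52, and the arginine importer Slc7a1 by -1.01, from 13.8 to 6.87 CPM. Slc7a2, an arginine importer at far higher levels, went the other way within 2-fold. It stood at 861, 1038, 1641 and 1312 CPM, a ratio of 0.66. Ass1, which rebuilds arginine, was at 0.72.

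In the prostaglandin and leukotriene list, 3 of 13 were higher and 3 lower, and the median was 0.09, and the 2 cyclooxygenases parted. Ptgs2, the inducible cyclooxygenase, stood at 9.39 CPM in Wnt2 against 35.7 CPM in CAF.CM, with 0.897 in control medium and 98.3 in the antibody library, a log2 ratio of 1.92 (1.81 to 2.05). Ptgs1, the constitutive form, stood at 207, 383, 78.0 and 49.6 CPM, a ratio of -2.30 (-2.36 to -2.23). Ptges, which makes prostaglandin E2 from their product, was higher (2.87), as was Ltc4s, the leukotriene C4 synthase (3.04), while Alox5, the enzyme that opens the leukotriene pathway, was lower (-1.64).

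Genes of IL-4-driven alternative activation also lay on both sides, with 6 of 19 higher and 7 lower. The higher members included Chil3 (a chitinase-like protein, 1.35), Retnla (1.4) and Clec10a (a lectin, 1.30). Retnla stood at 13.2, 3.32, 8.8 and 14.2 CPM, so CAF.CM lay below control medium. The lower members included Arg1, the mannose receptor Mrc1 (-2.70), the transcription factor Egr2 (-2.06) and fibronectin, Fn1 (-3.16). Mrc1 stood at 59.2 CPM in Wnt2 and 9.10 CPM in CAF.CM, against 78.7 in control medium and 5.26 in the antibody library. Of 14 scavenger receptors, 2 were higher and 5 lower, so Marco (5.80) stood opposite Colec12 (-3.49), Mrc1 and Msr1 (-1.42). Of 14 C-type lectins and Siglecs, 5 were higher and 4 lower. Siglece, an inhibitory lectin that binds sialic acid, stood at 1.64, 0.866, 12.8 and 5.86 CPM, a ratio of 3.86 (3.60 to 4.19). Clec4e, a receptor for mycobacterial lipid, was higher at 1.59, and Clec5a and the beta-glucan receptor Clec7a were lower at -1.68 and -1.52. Of 7 Fc receptors, the high-affinity IgG receptor Fcgr1 was higher (1.4) and Fcrls lower (-1.75).

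Secreted matrix proteins had the lowest median of the 39 pathway lists, -2.01, with 0 of 11 measured members higher and 6 lower. Thbs1 (chr2:118111876-118127133), thrombospondin 1, stood at 37682 CPM in Wnt2 against 9374 CPM in CAF.CM, with 8256 in control medium and 6335 in the antibody library, a log2 ratio of -2.01 (-2.01 to -2.0). Fn1 (chr1:71585520-71653200) stood at 6538, 7003, 785 and 360 CPM, a ratio of -3.16 (-3.18 to -3.14). Spp1, osteopontin, stood at 659, 715, 86.7 and 78.2 CPM, a ratio of -3.04 (-3.10 to -2.98). These genes differed in the order of their libraries. For Thbs1 and Vcan the Wnt2 library alone was high, while for Fn1 and Spp1 control medium and Wnt2 were alike and both CAF.CM libraries were low. Tgfbi, a matrix protein induced by TGF-beta, was lower at -2.62. Emilin1 (0.27) and the galectin Lgals1 (-0.40) were within 2-fold.

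Of 17 matrix metalloproteinases and inhibitors, 8 were lower, and the median was -0.88. Mmp8, a collagenase, stood at 1489 CPM in Wnt2 and 140 CPM in CAF.CM, against 544 in control medium and 99.3 in the antibody library, a log2 ratio of -3.41 (-3.46 to -3.36). Mmp9, a gelatinase, stood at 264, 288, 27.4 and 20.3 CPM, a ratio of -3.39 (-3.50 to -3.28). Mmp13 (-2.72), the elastase Mmp12 (-2.52) and the urokinase receptor Plaur (-2.05) were lower as well. Of 12 leukocyte integrins, 1 was higher (Itga4, 1.32) and 3 lower (Itgax, Itgb5 and Itgam). Itgax, the CD11c chain by which mouse dendritic cells are commonly recognised, stood at 888, 223, 47.7 and 30.3 CPM, a ratio of -2.22 (-2.31 to -2.14), and was highest in control medium. Itgb5, used in taking up dying cells, had a ratio of -1.36, and Itgam, the CD11b chain, one of -1.04, with 73.8% of its sequence words shared with another gene.

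The adenosine pathway turns extracellular ATP into adenosine, which restrains immune cells. Of 9 measured members, 1 was higher and 4 lower, and the median was -0.87. Nt5e (CD73, chr9:88327197-88372092), which makes adenosine from AMP, stood at 231 CPM in Wnt2 against 26.4 CPM in CAF.CM, with 23.03 in control medium and 17.4 in the antibody library, a log2 ratio of -3.13 (-3.24 to -3.02). Wnt2 was thus the high library for Nt5e, with the other 3 close together. Entpd1 (CD39), which makes AMP from ATP, stood at 60.4, 54.5, 16.7 and 16.0 CPM, a ratio of -1.71 (-1.85 to -1.57). The adenosine receptors parted, with Adora2a higher (1.79) and Adora3 lower (-1.74).

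Among Wnt receptors and beta-catenin components, 0 of 19 measured were higher and 2 were lower, with a median of -0.43. Over all genes 4.32% were higher and 6.43% lower. Fzd1, a Frizzled receptor, stood at 48.7 CPM in Wnt2 and 5.72 CPM in CAF.CM, against 27.0 in control medium and 3.58 in the antibody library, a log2 ratio of -3.08 (-3.33 to -2.85). Tcf7, a nuclear partner of beta-catenin, was the other lower member (-1.40). Ctnnb1, beta-catenin itself, stood at 347, 360, 267 and 286 CPM, a ratio of -0.43 (-0.47 to -0.39), within 2-fold. Fzd7 (0.42) and the secretion factor Wls (-0.52) were also within 2-fold. Of 20 genes known as Wnt targets, only 9 were measured, with Ccnd1 (cyclin D1, 1.27) higher and Sox4 (-1.71) lower. Ccnd1 stood at 11.4, 3.67, 8.91 and 6.59 CPM, so control medium was its highest library. Axin2, Lgr5, Nkd1 and Notum, the usual readouts of beta-catenin signalling, are not in any table used here, and Apcdd1 was listed only in the Wnt2 table, at 2.57 CPM against 0.841 CPM in control medium. The part of beta-catenin signalling in these ratios was not tested.

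Lipid genes were balanced, with 3 of 20 higher, 4 lower and a median of -0.01. Apoe, the lipoprotein of lipid-laden macrophages, stood at 4862 CPM in Wnt2 against 471 CPM in CAF.CM, with 4647 in control medium and 265 in the antibody library, a log2 ratio of -3.37 (-3.39 to -3.34). Npc2, which carries cholesterol out of lysosomes, stood at 621, 597, 2031 and 2308 CPM, a ratio of 1.77 (1.75 to 1.78). Fabp4, a fatty acid carrier, was higher at 2.23 (62.2, 9.8, 46.0 and 28.7 CPM). The lipoprotein lipase Lpl was higher at 1.52 (4096, 283, 811 and 622 CPM). Both were highest in control medium and lowest in Wnt2. Among 22 genes of sterol and fatty acid synthesis, the desaturase Scd1 (2.42) was higher and 0 were lower. Oxidative stress genes had 2 of 16 higher, namely Sod2 (mitochondrial superoxide dismutase, 1.66) and Hmox1 (haem oxygenase 1, 1.44). Hmox1 stood at 391, 671, 1818 and 2306 CPM, so all 3 treated libraries were above control medium.

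Genes of glycolysis and the hypoxia response differed little: of 29 measured, 1 was higher (Ankrd37, 1.4), 0 were lower and the median was 0.05. Gapdh (0.05), Pkm (-0.08) and Slc2a1 (-0.06) were near equality. Of 22 integrated stress response genes, 1 was higher and 5 lower, and the median was -0.50. The lower ones were led by enzymes that make serine and asparagine, Phgdh (-2.47), Asns (-1.86) and Psat1 (-1.73), together with the transcription factor Atf5 (-1.36). Atf3 was the higher one (1.34), while Atf4, the central factor of the response, was at -0.02. Atf3 stood at 414, 103, 260 and 292 CPM, so control medium was its highest library. Of 14 AP-1 and EGR factors, Atf3 was higher and Fos (-1.59), Egr2 (-2.06) and Fosb (-2.22) lower. Among 21 replication and mitosis genes, 2 were higher (Top2a, 1.34, and Ccnd1), 0 were lower and the median was 0.41, while Mki67, a marker of cycling cells, was at -0.58.

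Lysosomal proteases and hydrolases had 0 of 22 higher and 3 lower. Ctsl, cathepsin L, stood at 2952 CPM in Wnt2 and 823 CPM in CAF.CM, against 2514 in control medium and 671 in the antibody library, a log2 ratio of -1.84 (-1.86 to -1.82). Ctsk (-1.03) and the proton pump subunit Atp6v0d2 (-1.05) lay near the threshold, and Atp6v0d2 was within 2-fold under 2 of the 4 other scalings. Respiratory chain genes differed by the genome that encodes them. Of 13 mitochondrially encoded protein-coding genes, 12 were lower, with a median of -1.69, while 0 of 21 nuclear-encoded respiratory chain genes were higher or lower, with a median of 0.34. The summed level of the 13 was 25200 CPM in Wnt2 and 11200 CPM in CAF.CM. Mitochondrially encoded genes of every type together differed less, at 6.1% of reads in Wnt2 and 4.27% in CAF.CM. These shares cover only genes listed in all 3 tables, which leaves out mt-Nd4l. mt-Nd5 stood at 496, 515, 122 and 46.2 CPM, a ratio of -2.08, with 16.8% of its sequence words shared. mt-Co2 was the exception at -0.01. mt-Nd4l had no read in CAF.CM against 13.2 CPM in Wnt2, which is at least 115-fold lower when 3 reads are taken as the floor. Other transcripts hold 98.9% of the sequence words of mt-Nd4l, 99.9% of those of mt-Co3 (-2.29) and 98.1% of those of mt-Nd3 (-2.22), so these levels are uncertain. Of 23 cytosolic ribosomal protein genes, 0 were lower, and the median was 0.32.

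**Figure D5:**
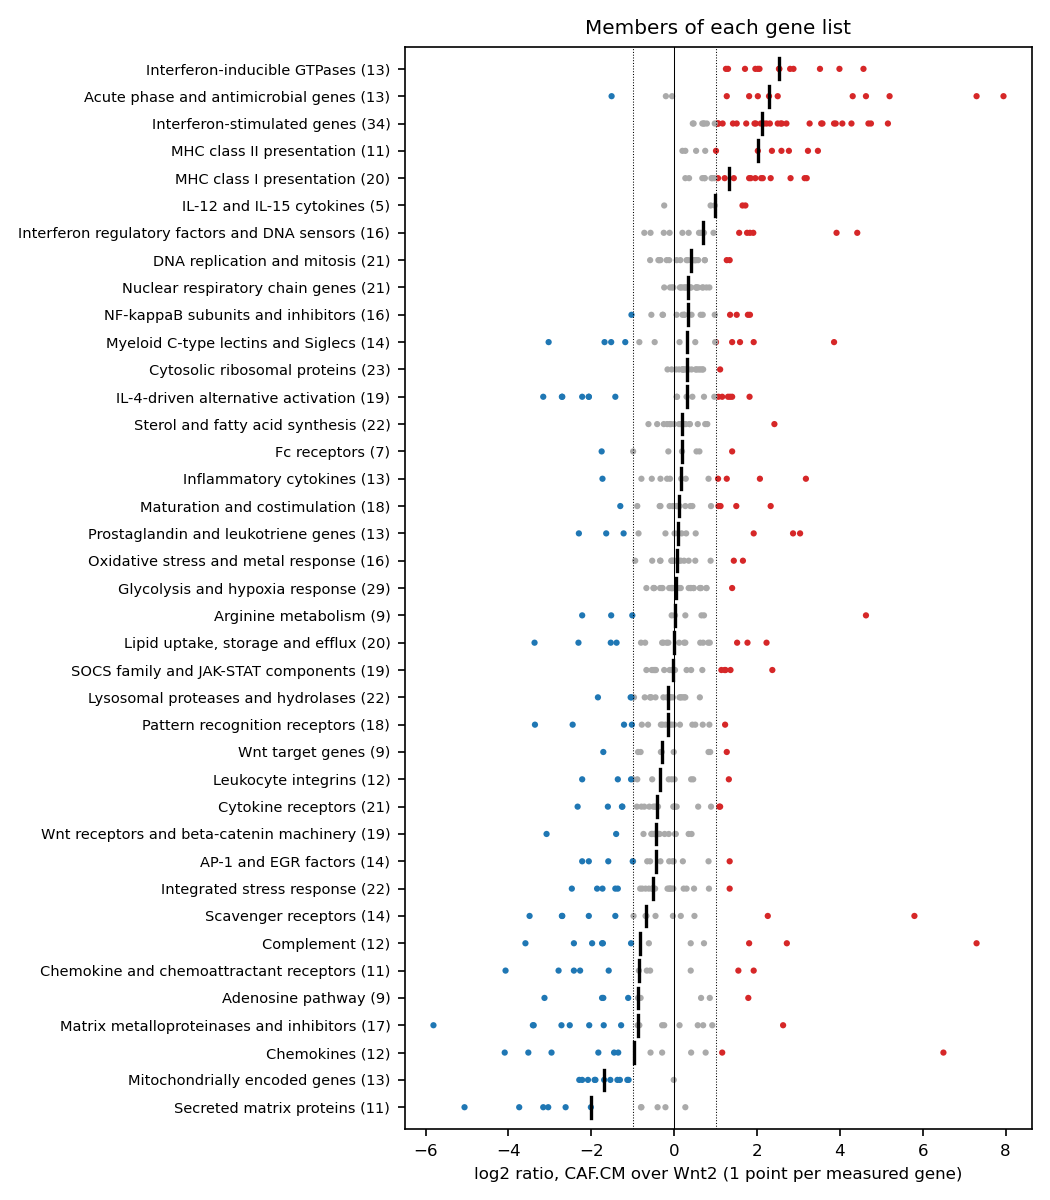
Log2 ratio of CAF.CM over Wnt2 for each measured member of the 39 pathway lists, with the number measured in brackets; black bars are list medians, dotted lines 2-fold, and red and blue points genes past it. GTPases (median 2.53) stand at the top and secreted matrix proteins (-2.01) at the bottom; mt-Nd4l, with no read in CAF.CM, is not drawn.

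Markers of cell types were read for what the cultures held. Of 17 conventional dendritic cell markers, 13 were measured, with 3 higher and 3 lower, and the summed level was 1330 CPM in Wnt2 against 1390 CPM in CAF.CM, with 2850 in control medium and 1260 in the antibody library. The near-equal sums hide opposite members, such as H2-Ab1 (71.0 CPM in Wnt2, 483 CPM in CAF.CM) and Itgax (223 and 47.7 CPM). Zbtb46 (0.73) and Irf4 (0.95) were within 2-fold, Batf3 (1.25), Clec10a (1.30) and the class II chain H2-Ab1 were higher, and Clec9a (-1.84), Itgax and Kmo were lower. Kmo, an enzyme of tryptophan breakdown, had a ratio of -5.12 (-7.65 to -3.82) and rested on 3 reads in CAF.CM. Flt3 and Xcr1 were listed only in the Wnt2 table, at about the listing minimum of 1 CPM. Of 20 macrophage and monocyte markers, all measured, 3 were higher and 11 lower, and the median was -1.26. Their summed level was 28200 CPM in Wnt2 and 12600 CPM in CAF.CM, against 35400 in control medium and 9280 in the antibody library. The members did not move as a block: Adgre1 (F4/80, 1.26) and Ly6c2 (2.12) were higher, Cd68 (-0.04) and Csf1r (-0.46) were within 2-fold, and Lyz2 (lysozyme, -1.39), Apoe and Ccr2 were lower. The part of a different mix of macrophage-like cells in the lower chemokine, complement and matrix genes was not tested.

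Fibroblast markers were examined because the medium came from CAFs. Of 15, 6 were measured, with 2 higher and 0 lower. Dcn, the matrix proteoglycan decorin, stood at 1.01 CPM in Wnt2 against 10.7 CPM in CAF.CM, with 0.509 in control medium and 13.9 in the antibody library, a log2 ratio of 3.38 (3.12 to 3.70). Col5a1, a fibrillar collagen chain, stood at 5.12, 6.37, 23.6 and 49.1 CPM, a ratio of 1.89 (1.74 to 2.04). Both CAF.CM libraries were the higher ones for these genes. Col1a1, Pdgfra, Lum and Fap are not in any table used here, and Col1a2 and Col3a1 were listed only in the Wnt2 table, at 1.07 and 2.58 CPM. The summed level of the 6 was 15.5 CPM in Wnt2 and 41.7 CPM in CAF.CM, against 16.5 in control medium and 66.8 in the antibody library. The part of fibroblast RNA in these ratios was not tested. Few markers of lymphocytes were measured: Gzma, a granzyme, was higher (2.29), Ms4a1, Cd3e and Ncr1 are not in any table used here, and the summed T cell list was 5.23 CPM in Wnt2 and 5.45 CPM in CAF.CM. Of the 2 measured B cell genes, the adaptor Blnk was higher (2.35) and Ighm lower (-2.14). Blnk stood at 32.2, 6.86, 35.1 and 43.0 CPM, so CAF.CM was near control medium and Wnt2 was the lowest library. Megakaryocyte markers had 2 of 3 measured members lower, Pf4 (-2.56) and Ppbp (-4.81). A further marker, Gp6, was listed only in the CAF.CM table, at 4.30 CPM against 0.671 CPM in control medium and 2.37 CPM in the antibody library.

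Genes listed in only 1 of the 2 tables have no ratio, because a table includes a gene only if either of its libraries reached about 1 CPM. The CAF.CM table held 375 genes that the Wnt2 table did not, 14 of them at 5 CPM or more in CAF.CM. The Wnt2 table held 166 that the CAF.CM table did not, with 0 at 5 CPM or more. Control medium was under 1 CPM for all of them. If this minimum alone decided the listing, their level in the library without a listing was also under about 1 CPM. The highest of the former were the interferon-inducible GTPase Iigp1 (25.5 CPM in CAF.CM, 0.749 CPM in control medium, 5.04 CPM in the antibody library), Ms4a4c (21.7 CPM), Susd2 (12.9 CPM), Clic5 (12.9 CPM) and Ifi205 (12.7 CPM), a member of the Ifi200 family. The highest named gene of the latter was Sema3c, a secreted guidance protein, at 4.36 CPM in Wnt2 and 0.311 CPM in control medium.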

How the data were processed

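Ribosomal RNA was removed from 1 ug of total RNA of cultured mouse dendritic cells before stranded Illumina libraries were prepared, per the labels' protocols. Samples were grouped by their treatment label into 4 groups with 1 library each. The submitters' processing notes name STAR 2.4.2a, RSEM 1.2.29, edgeR and the builds GRCm38.p5 and mm10. Settings and the use of strand in counting are not given there.

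The authors deposited CPM values with 3 decimals, in 1 table per comparison, on scaled library sizes. Per the file headers, the authors also deposited log2 fold changes, log2 mean CPM and both raw and adjusted p-values, and how p-values were obtained from 1 library a group is not stated. Of these, the log2 fold changes were used in an alternative and the others were not used. CPM values were whole multiples of 1 step per library within 0.1 step for 100% of values in each library, and reads were recovered from these steps. Control medium and CAF.CM values were identical wherever 2 tables list the same gene, so all libraries share 1 scaling. Columns of per-sample values that were not used numbered 0.

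Log2 ratios used a prior count of 2 scaled to depth and the authors' library sizes, with scipy 1.17.1, pandas 2.3.3 and numpy 2.4.6 under Python 3.11.15. Intervals are 95% conditional binomial (Clopper-Pearson). Figures used matplotlib 3.10.9. The steps were tested on simulated data. Positions and transcripts came from GENCODE M21, which matched 99.9% of genes. Promoters came from RefSeq and matched 80.7% of the 11332 protein-coding genes. Genes were named by a rule: the 14 highest and 14 lowest protein-coding genes with at least 200 reads in the sum of both libraries and 5 CPM in either (predicted, unnamed and mitochondrial genes set aside), then up to 4 members per list, and a fixed set. This gave 188 genes. Some genes are not reported here. Other list members, genes listed in 1 table only and the genes of the closing section are not covered by the rule and were picked once their values had been seen. The genes compared, the lists and the rule were chosen with earlier results of these data known. Of identifiers that share a symbol, lists take the best covered. Alternatives were other scalings, prior counts, filters, thinning, gene classes, the deposited fold changes and thresholds.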

Additional observations from a re-analysis of the deposited data

How the results depend on the processing

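Other scalings moved the median log2 ratio from -0.05 to -0.01 with median-of-ratios factors, to 0.0 with total reads, an own TMM factor or centring on the median, and to -0.04 with the genes listed in all 3 tables. The counts were 610 higher and 767 lower with median-of-ratios factors, 616 and 759 with total reads, 619 and 757 with TMM, and 617 and 757 after centring. Prior counts of 0.5 and 5 gave 567 and 840, and 550 and 819. The counts fell to 326 and 428 for genes with at least 10 CPM in 1 library, and the lower count fell to 499 where the counting interval had to lie wholly beyond 2-fold. A threshold of 1.5-fold gave 1350 and 1936. With genes listed in all 3 tables, 556 were higher and 595 lower. Under the remaining alternatives both counts stayed within 1.5 times those given. The changes with filters and thresholds follow from which genes are counted. Of 148 named genes past 2-fold, 144 to 148 stayed so on the same side under the 8 alternatives run for single genes, and 0 of 188 changed sign. List medians changed sign for the SOCS and JAK-STAT, lipid and NK cell lists, each of which lay between -0.05 and 0 in the main setting. The NK cell median reached 0.78 with at least 100 reads in 1 library, and requiring at least 10 CPM moved a list median by up to 2.2. No paired analysis was possible because each group has 1 library, and no library could be left out. The depth of the CAF.CM library, where 1 read is 0.0384 CPM, limits precision for genes under about 1 CPM, and the spread between cultures is not known.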

Other observations

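Other gene families separated the CAF.CM and Wnt2 libraries in ways not described above. Of the Ly6 family of surface proteins, looked up by symbol after values had been seen, 4 of 4 measured genes were higher in CAF.CM, against 4.32% of all genes. Ly6i stood at 2.17 CPM in Wnt2 and 48.0 CPM in CAF.CM, a log2 ratio of 4.46 (4.29 to 4.65), Ly6a at 9.01 and 87.1 CPM, a ratio of 3.27, Ly6c2 at 20.4 and 88.6 CPM, a ratio of 2.12, and Ly6e at 148 and 321 CPM, a ratio of 1.12. Plac8, a small cysteine-rich protein of myeloid cells, stood at 1.37 CPM in Wnt2 against 26.7 CPM in CAF.CM, with 1.597 in control medium and 17.5 in the antibody library, a ratio of 4.26 (4.06 to 4.52). Slfn4, a Schlafen family gene, stood at 7.73, 11.1, 82.3 and 52.7 CPM, a ratio of 2.88. Il18bp, which neutralises IL-18, had a ratio of 3.47. Of 5 measured genes of the Ifitm family of antiviral membrane proteins, looked up in the same way, 0 were higher and 2 lower, against 6.43% lower over all genes. Ifitm1 and Ifitm6 had ratios of -3.16 and -2.63, and Ifitm2 (-0.15), Ifitm3 (-0.04) and Ifitm5 (-0.27) were within 2-fold. Selp, the adhesion molecule P-selectin, had a ratio of -3.16.

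Noncoding transcripts also differed. Mir155hg, the host transcript of a microRNA of activated immune cells, stood at 2.90 CPM in Wnt2 and 29.8 CPM in CAF.CM, against 2.17 in control medium and 37.9 in the antibody library, a ratio of 3.35 (3.19 to 3.53). Malat1 stood at 13899, 17692, 27631 and 37882 CPM, a ratio of 0.64. Gm26870, Gm10800 and Gm10801 had ratios of 4.95, 4.34 and 4.55, and for Gm26870 the levels were 0.827, 10.3, 319 and 845 CPM. Of 36 small nuclear RNAs, 12 had no read in CAF.CM, and these 12 were also the lower ones. Rnu1a1 and Rnu2-10, for example, stood at 35.2 and 46.7 CPM in Wnt2, which is at least 306-fold and 406-fold above the floor of 3 CAF.CM reads. Several copies carried identical values (Rnu1a1, Gm22068 and Gm22634 all at 35.2 CPM), so they are not independent genes. Rn7s1 and Rn7s2, copies of the RNA of the signal recognition particle, lay on opposite sides at -2.95 and 1.11, while their summed level gave a ratio of 0.44. Gm28037 had no read in Wnt2 and stood at 32.0 CPM in CAF.CM.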
